A study of Danio rerio with 16 samples.

Results

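foxq1a, foxq1b and meox1 are 3 genes for developmental transcription factors, here followed in zebrafish embryos exposed to dioxin. They are 3 of the 32266 genes in the count table, and all 3 were among the 20630 genes with enough reads to be tested. foxq1a (ENSDARG00000030896) and meox1 (ENSDARG00000007891) were chosen because 2,3,7,8-tetrachlorodibenzo-p-dioxin (TCDD) raised them in these same samples, and foxq1b because it is the paralog of foxq1a. All 3 were chosen with earlier results of these data known. Their TCDD responses are therefore described, with fold changes and errors but with no test. foxq1b was found by its symbol, foxq1a and meox1 by identifier.

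RNA was sequenced from whole Danio rerio embryos (line Tropical 5D), collected 48 hours post fertilization (hpf), in 16 libraries of 20 pooled embryos each. There were 4 groups of 4 biological replicates. The TCDD-exposed control morphants (ConMO_TCDD) were set against DMSO-exposed control morphants (ConMO_DMSO), and the TCDD-exposed slincR morphants (slincRMO_TCDD) against DMSO-exposed slincR morphants (slincRMO_DMSO). All embryos carried a morpholino, an antisense oligomer injected into the early embryo. It was a control oligomer or an oligomer against slincR, a long noncoding RNA gene, and no group was left uninjected. Exposure began at about 6 hpf and lasted 1 h, to 1 ng/mL TCDD or to 0.1% dimethyl sulfoxide (DMSO), the solvent in which TCDD is dissolved. A morpholino lowers its target only in part and for a limited time, and a pool of whole embryos averages over all tissues.

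TCDD binds the aryl hydrocarbon receptor (AHR), which moves into the nucleus, pairs with ARNT and switches on target genes such as cyp1a, a monooxygenase of xenobiotic metabolism. FOXQ1 proteins belong to the forkhead family, whose members bind DNA through a winged helix domain. In mouse, loss of Foxq1 gives the satin coat, and in mammalian cells FOXQ1 is linked to the passage of epithelial cells to a mesenchymal state. An earlier zebrafish study described induction by TCDD, in the jaw primordium, of a gene it called foxq1b. That name was not matched to the identifiers used here. Meox1 is a homeobox factor of the somites, the segments that give rise to muscle, vertebrae and dermis, and the zebrafish choker mutant carries a change in meox1.

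The libraries held 14977267 to 23142081 reads assigned to genes. Levels are given in CPM, the reads of a gene scaled to a common library size, after normalisation between libraries by the trimmed mean of M values. cyp1a, used to check the exposure, had 1949 ± 85.4 CPM in ConMO_TCDD and 12.7 ± 1.89 CPM in ConMO_DMSO (SD, n = 4 each). It had 1850 ± 203 CPM in slincRMO_TCDD and 11.1 ± 1.29 CPM in slincRMO_DMSO (SD, n = 4 each), so all 16 libraries matched their labelled exposure. The slincR transcript could not be matched to an identifier and its level is not reported here. On the first principal component of all tested genes, ConMO_DMSO replicate 4 lay at -63.4 and the other 15 libraries between -17.7 and 19.4. Several results that change when this library is left out are given with and without it.

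foxq1a was about 5 times as high in TCDD-exposed embryos of either morpholino as in their DMSO controls. In ConMO_TCDD it stood at 25.6, 20.3, 25.9 and 24.7 CPM in replicates 1 to 4, against 3.79, 4.52, 4.54 and 5.51 CPM in ConMO_DMSO. The lowest exposed library was thus far above the highest unexposed library, and the exposed libraries other than replicate 2 were close together. In slincRMO_TCDD it stood at 21.4, 21.2, 21.1 and 23.4 CPM, against 5.54, 4.15, 3.96 and 3.91 CPM in slincRMO_DMSO. These groups did not overlap either, and 3 of the 4 exposed libraries were nearly level. The counts behind these values were 393 to 459 reads in ConMO_TCDD, 68 to 91 in ConMO_DMSO, 334 to 456 in slincRMO_TCDD and 73 to 93 in slincRMO_DMSO.

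As group means, foxq1a had 24.1 ± 2.60 CPM in ConMO_TCDD and 4.59 ± 0.703 CPM in ConMO_DMSO (SD, n = 4 each). The log2 fold change fitted by edgeR was 2.39 ± 0.14 (SE), or 5.25-fold, with a 95% interval of 4.30-fold to 6.41-fold. Without ConMO_DMSO replicate 4 that log2 fold change was 2.49 ± 0.15 (SE). In slincR morphants the means were 21.8 ± 1.1 CPM in slincRMO_TCDD and 4.39 ± 0.773 CPM in slincRMO_DMSO (SD, n = 4 each). The log2 fold change there was 2.32 ± 0.14 (SE), or 4.98-fold. Among the 20630 genes tested, ordered from the highest log2 fold change down, foxq1a took place 12 in control morphants and place 17 in slincR morphants. The authors' deposited table lists it with log2 fold changes of 2.39 and 2.32.

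**Figure D1:**
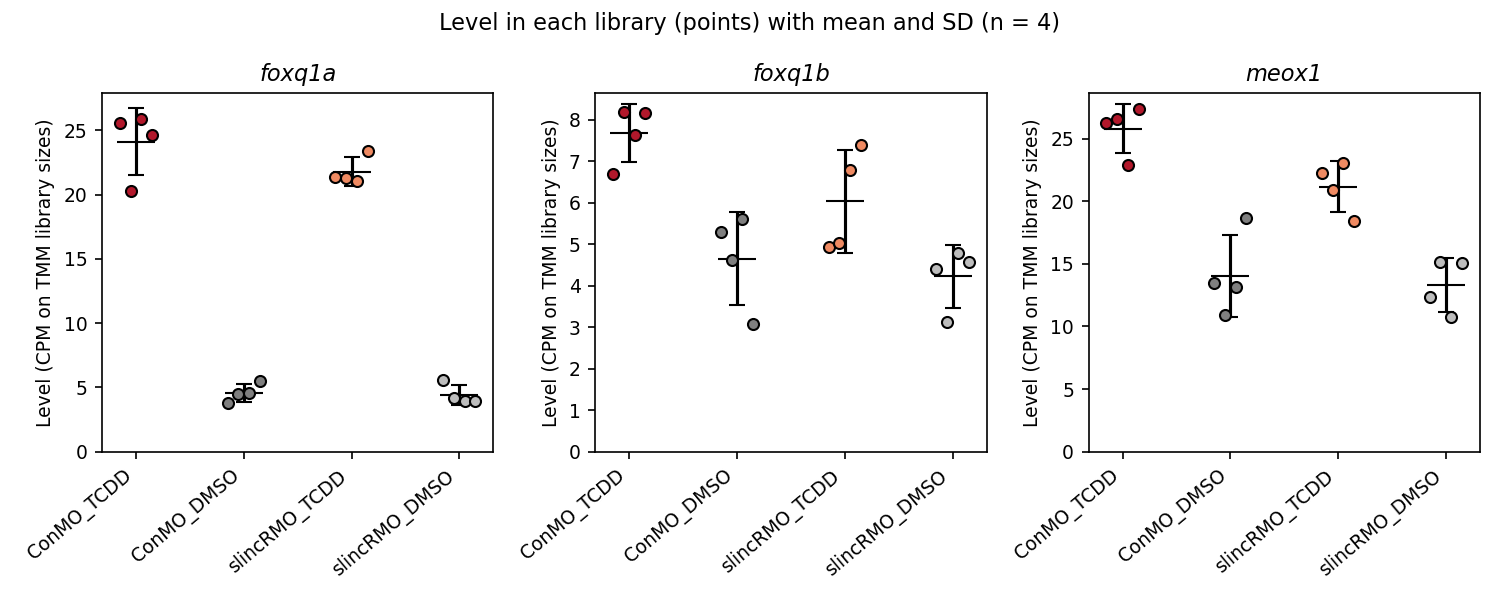
Level of foxq1a, foxq1b and meox1 in every library, in CPM, 1 panel per gene with its own axis and the 4 groups along the x axis. Points are libraries and bars are the mean and SD of 4 libraries. In each panel, both TCDD groups lie above their own DMSO group without overlap.

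foxq1b showed a smaller difference in the same direction. It had 6.70, 8.18, 7.62 and 8.17 CPM in ConMO_TCDD replicates 1 to 4, against 5.30, 4.62, 5.59 and 3.09 CPM in ConMO_DMSO. The groups did not overlap, and ConMO_DMSO replicate 4, the library that stands apart, was the lowest of all. In slincRMO_TCDD it had 4.93, 5.02, 6.78 and 7.40 CPM, against 4.41, 3.11, 4.78 and 4.58 CPM in slincRMO_DMSO. Here the groups came within a small margin of each other, the lowest exposed library standing just above the highest unexposed library. The counts were low, at 103 to 159 reads per library in ConMO_TCDD, 51 to 95 in ConMO_DMSO, 77 to 144 in slincRMO_TCDD and 63 to 103 in slincRMO_DMSO.

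The mean of foxq1b was 7.67 ± 0.697 CPM in ConMO_TCDD and 4.65 ± 1.12 CPM in ConMO_DMSO (SD, n = 4 each), with a log2 fold change of 0.72 ± 0.19 (SE), or 1.65-fold. Without ConMO_DMSO replicate 4 that log2 fold change was 0.57 ± 0.19 (SE). In slincR morphants the mean was 6.03 ± 1.24 CPM in slincRMO_TCDD and 4.22 ± 0.752 CPM in slincRMO_DMSO (SD, n = 4 each). The log2 fold change there was 0.52 ± 0.20 (SE), or 1.43-fold. In the order of log2 fold changes foxq1b took place 399 in control morphants and place 668 in slincR morphants. Neither of the authors' deposited lists of changed genes holds it.

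The fold change of meox1 lay between those of the paralogs. It had 26.3, 26.6, 22.9 and 27.4 CPM in ConMO_TCDD replicates 1 to 4, against 13.4, 10.9, 13.2 and 18.6 CPM in ConMO_DMSO. Here ConMO_DMSO replicate 4 was the highest unexposed library, and it still lay below every exposed library. In slincRMO_TCDD meox1 had 22.2, 20.9, 23.1 and 18.4 CPM, against 12.3, 15.1, 10.7 and 15.1 CPM in slincRMO_DMSO. These groups did not overlap, and slincRMO_TCDD replicate 4, the highest library of its group for foxq1a and foxq1b, was the lowest for meox1. The counts were 404 to 516 reads in ConMO_TCDD, 200 to 308 in ConMO_DMSO, 347 to 433 in slincRMO_TCDD and 198 to 339 in slincRMO_DMSO.

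The mean of meox1 was 25.8 ± 1.96 CPM in ConMO_TCDD and 14.0 ± 3.26 CPM in ConMO_DMSO (SD, n = 4 each), with a log2 fold change of 0.88 ± 0.14 (SE), or 1.84-fold. Without ConMO_DMSO replicate 4 that log2 fold change was 1.04 ± 0.13 (SE). In slincR morphants the mean was 21.2 ± 2.02 CPM in slincRMO_TCDD and 13.3 ± 2.16 CPM in slincRMO_DMSO (SD, n = 4 each). The log2 fold change there was 0.66 ± 0.14 (SE), or 1.58-fold. meox1 took place 239 in control morphants and place 389 in slincR morphants in the order of log2 fold changes. The authors' deposited table lists it with log2 fold changes of 0.88 and 0.66.

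All 3 genes were thus higher without overlap in both TCDD comparisons. Of all genes tested, 2.93% were higher without overlap in control morphants and 2.86% in slincR morphants. Since foxq1a and meox1 were chosen on this contrast, and foxq1b with earlier results of these data known, nothing is read from their count. In whole-embryo RNA, more cells of a type and more RNA per cell cannot be told apart.

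The slincR morpholino comparisons were not themselves used to choose the genes, and were tested. They rest on the same 16 libraries and so share samples with the TCDD comparisons. One of them is the difference between TCDD responses, and foxq1a and meox1 were chosen for a rise with TCDD. The choice may therefore have shifted these estimates, by an amount that was not tested. The question is whether knockdown of slincR alters the level of these genes or their response to TCDD. In the presence of TCDD, 0.446% of all genes tested passed an adjusted p of 0.05 by edgeR's quasi-likelihood test with Benjamini-Hochberg adjustment, and none of the 3 genes did. The fold of slincRMO_TCDD over ConMO_TCDD was 0.904 for foxq1a (95% interval 0.757 to 1.08), with an adjusted p of 0.735 by edgeR. It was 0.787 for foxq1b (95% interval 0.599 to 1.03), with an adjusted p of 0.53 by edgeR. For meox1 it was 0.82 (95% interval 0.672 to 1.00), with an adjusted p of 0.464 by edgeR and an unadjusted p of 0.0505. All 3 estimates lay below 1. The libraries of the groups overlapped for each gene, where 7.66% of all genes tested had groups apart in either direction. For meox1 the log2 difference was -0.29 ± 0.14 (SE), and -0.29 ± 0.12 (SE) without ConMO_DMSO replicate 4.

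In DMSO, 0.15% of all genes tested passed, and again none of these 3. The fold of slincRMO_DMSO over ConMO_DMSO was 0.954 for foxq1a (95% interval 0.769 to 1.18; edgeR adjusted p 0.926). It was 0.907 for foxq1b (95% interval 0.681 to 1.21; edgeR adjusted p 0.881) and 0.952 for meox1 (95% interval 0.774 to 1.17; edgeR adjusted p 0.921). The groups overlapped for all 3 genes, where 4.16% of all genes tested had groups apart. Without ConMO_DMSO replicate 4 the log2 difference was 0.0304 for foxq1a and 0.10 for meox1, both turned in sign, and -0.29 for foxq1b, against -0.14 with it.

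The difference between the TCDD responses of slincR and control morphants was tested as an interaction, in which 0% of all genes tested passed by edgeR, DESeq2 or limma-voom, with 617 genes (2.99%) at an unadjusted p under 0.05 by edgeR. The TCDD response of slincR morphants was 0.948 times that of control morphants for foxq1a (95% interval 0.717 to 1.25). It was 0.867 times for foxq1b (95% interval 0.584 to 1.29) and 0.862 times for meox1 (95% interval 0.647 to 1.15), and the adjusted p by edgeR was 1 for each. These intervals are not adjusted for the number of genes tested and are not limits of detection. Real differences between morpholinos could go undetected with 4 libraries a group, and the smallest detectable one was not worked out. The log2 interaction without ConMO_DMSO replicate 4 was -0.18 ± 0.19 (SE) for foxq1a, against -0.08 ± 0.20 (SE) with it. For foxq1b it was -0.06 ± 0.26 (SE) without that library and -0.21 ± 0.28 (SE) with it, and for meox1 -0.38 ± 0.18 (SE) without and -0.22 ± 0.20 (SE) with it. Over the 9 tests of the 3 genes in these 3 comparisons, 0 passed after adjustment by edgeR, DESeq2 or limma-voom. At an unadjusted p under 0.05, with all 16 libraries in the fit, the counts were 0 by edgeR, 0 by DESeq2 and 1 by limma-voom. The last was meox1 between slincRMO_TCDD and ConMO_TCDD. These counts do not cover the fit without ConMO_DMSO replicate 4, where the meox1 interaction lay farther from 0, as given above. A p that misses the threshold does not show that the groups are alike.

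**Figure D2:**
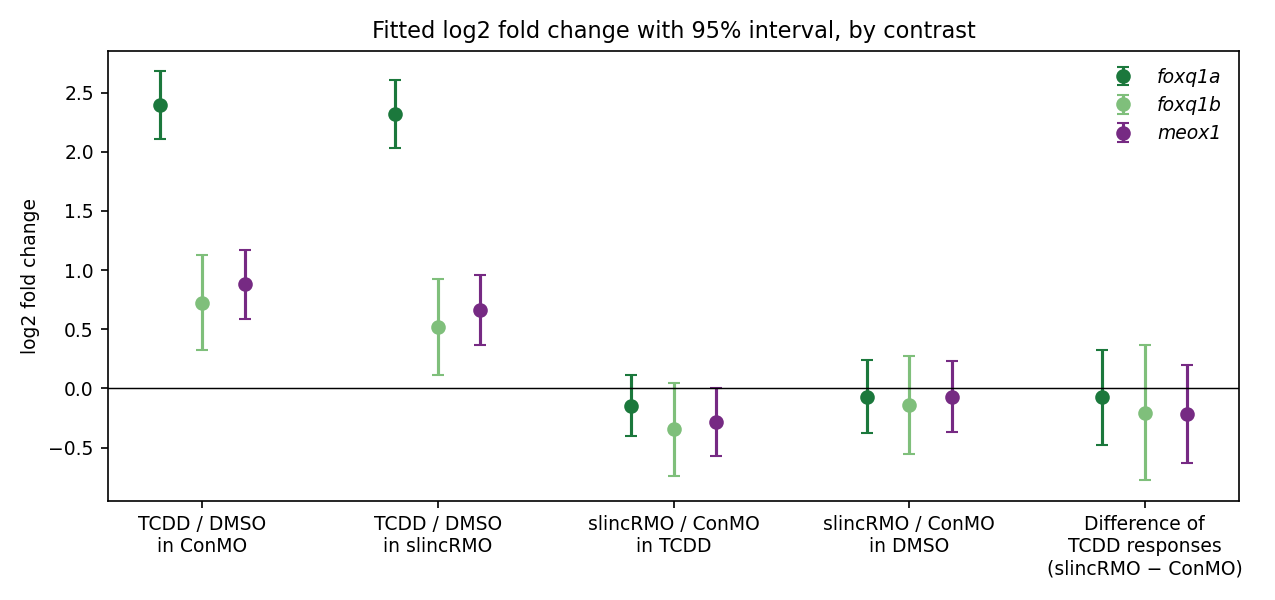
Log2 fold change of foxq1a, foxq1b and meox1 in the 5 comparisons, with 95% intervals from the edgeR fit of all 16 libraries. The TCDD estimates lie above 0 for all 3 genes, while the intervals of the slincR comparisons and of the interaction include 0.

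In vertebrates FOXQ1, FOXF2 and FOXC1 genes lie side by side, and zebrafish kept duplicate copies of this cluster. In the RefSeq gene order of assembly GRCz12tu, which differs from the build of the counts and is used here for order only, foxf2a adjoins foxq1a and foxf2b adjoins foxq1b. FOXF2 is a forkhead factor of mesenchyme and of the pericytes around vessels. The 3 nearest protein-coding genes on each side of each of the 3 genes gave 18 neighbours, of which 13 matched a row of the counts and 12 were tested. Of those 12, 1 passed the edgeR test in each TCDD comparison, foxf2a both times. Of all genes tested, 0.62% passed in control morphants (0.47% higher and 0.15% lower) and 0.383% in slincR morphants (0.31% higher and 0.0727% lower).

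foxf2a (ENSDARG00000017195) rose with TCDD under both morpholinos. It had 23.4, 23.0, 25.4 and 24.7 CPM in ConMO_TCDD replicates 1 to 4, against 11.2, 12.8, 13.2 and 11.1 CPM in ConMO_DMSO. In slincRMO_TCDD it had 23.6, 25.5, 19.9 and 23.7 CPM, against 13.8, 13.4, 11.3 and 11.4 CPM in slincRMO_DMSO. Neither pair of groups overlapped. The log2 fold change was 1.00 ± 0.11 (SE; edgeR adjusted p 5.1e-06) in control morphants and 0.89 ± 0.11 (SE; edgeR adjusted p 2.8e-05) in slincR morphants. The interaction was -0.10 ± 0.16 (SE) on the log2 scale, with an adjusted p of 1 by edgeR.

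The other genes of the duplicated cluster did not pass. foxf2b, the neighbour of foxq1b, had a log2 fold change of 0.21 ± 0.18 (SE; edgeR adjusted p 0.708) in control morphants and 0.32 ± 0.18 (SE; edgeR adjusted p 0.796) in slincR morphants. foxc1b, a forkhead factor of the head mesenchyme and somites, had -0.05 ± 0.08 (SE; edgeR adjusted p 0.85) in control morphants and -0.01 ± 0.08 (SE; edgeR adjusted p 0.998) in slincR morphants. foxc1a could not be matched by symbol. A row that the gene table names FOXC1 without saying which copy (ENSDARG00000091481) had -0.31 ± 0.10 (SE; edgeR adjusted p 0.224) and -0.24 ± 0.10 (SE; edgeR adjusted p 0.613). On the other side of foxq1a, ripk1l, a gene of the RIP kinase family, had 0.41 ± 0.19 (SE; edgeR adjusted p 0.419) in control morphants and 0.14 ± 0.19 (SE; edgeR adjusted p 0.972) in slincR morphants.

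The neighbours of meox1 include sost, an inhibitor of Wnt signalling in bone, and etv4, an ETS factor downstream of FGF signals. sost had a log2 fold change of 0.03 ± 0.12 (SE) in control morphants and 0.00 ± 0.12 (SE) in slincR morphants. etv4 had 0.01 ± 0.13 (SE) in control morphants and 0.22 ± 0.13 (SE) in slincR morphants, and neither gene passed the edgeR test in a TCDD comparison.

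**Figure D3:**
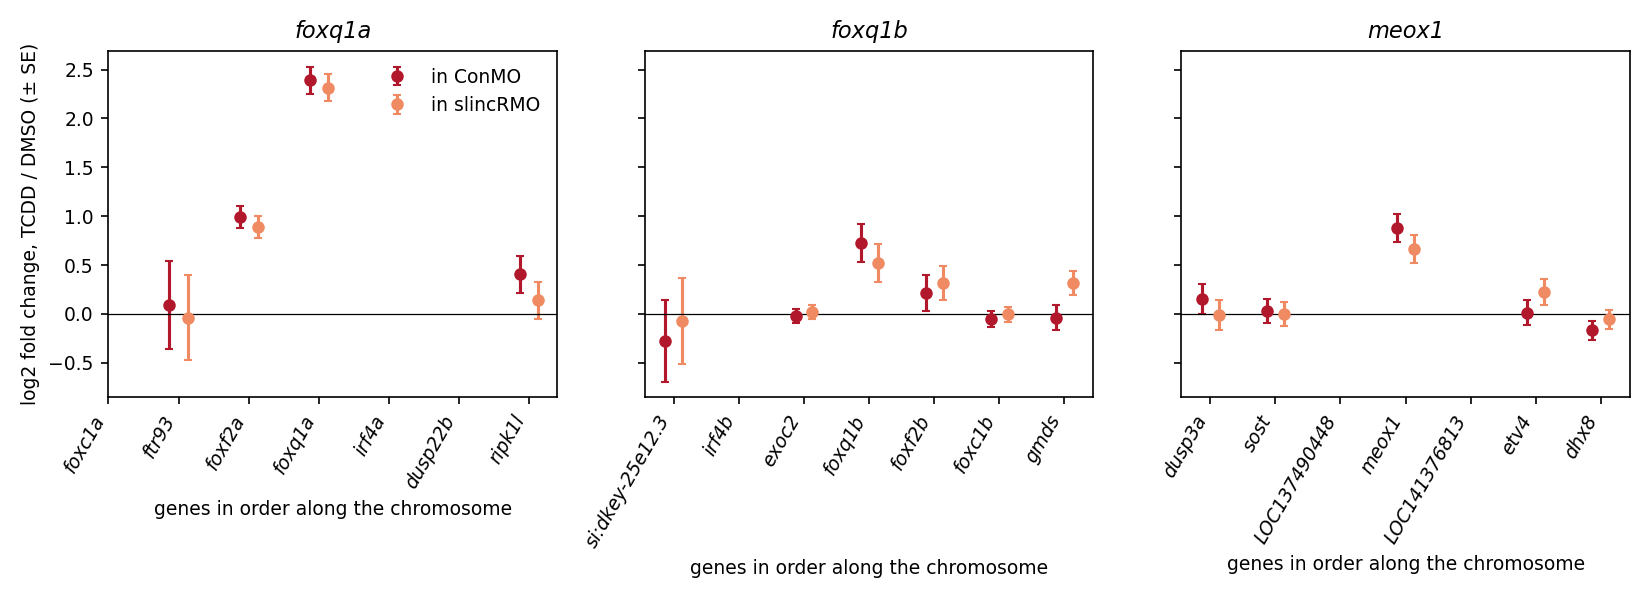
Log2 fold change with TCDD of foxq1a, foxq1b, meox1 and their tested neighbours, placed by gene order (up to 3 genes on each side, in positions and not distances), for both morpholinos, with bars of 1 SE. Names without a point were not matched or not tested. Beside foxq1a the neighbour foxf2a lies at 1.00 in control and 0.89 in slincR morphants, while foxf2b beside foxq1b lies at 0.21 and 0.32.

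The gene lists in this and the following paragraphs were chosen with earlier results of these data known. Calls and shares in them are therefore description, not independent support. Of 61 other forkhead genes matched by symbol, 55 were tested. In control morphants 1 rose and none fell past the threshold by edgeR, and in slincR morphants likewise 1 rose and none fell, foxf2a in both. The median log2 fold change of the 55 was 0.01 in control morphants and -0.01 in slincR morphants, beside 0.00 and -0.00 over all genes tested. Their log2 fold changes ranged from -0.73 to 1.00 in control morphants and from -0.46 to 0.89 in slincR morphants, and 47 of the 55 stayed within 0.5 of 0 in both. At an unadjusted p under 0.05 edgeR gave 12 in control morphants, 5 higher and 7 lower, or 21.8% of the 55 beside 11.2% of all genes tested. In slincR morphants it gave 6, 5 higher and 1 lower, or 10.9% beside 6.91%. DESeq2 called 3 in control morphants, adding foxi3b, a factor of the skin ionocytes, and a FOXO1 row (ENSDARG00000099555).

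foxi3b had a log2 fold change of -0.60 ± 0.15 (SE) in control morphants, with an adjusted p of 0.0599 by edgeR. The FOXO1 row had 0.44 ± 0.11 (SE) in control morphants, with an adjusted p of 0.0533 by edgeR, and the authors' deposited table lists it as foxo1a for control morphants. In the 3 comparisons that involve the slincR morpholino, edgeR called 0 of the 55. At an unadjusted p under 0.05 it gave 6 between slincRMO_TCDD and ConMO_TCDD (10.9% beside 10.8% of all genes tested), 9 between slincRMO_DMSO and ConMO_DMSO (16.4% beside 9.11%) and 2 in the interaction (3.64% beside 2.99%). DESeq2 called 0, 1 and 0 and limma-voom 0 in each.

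**Figure D4:**
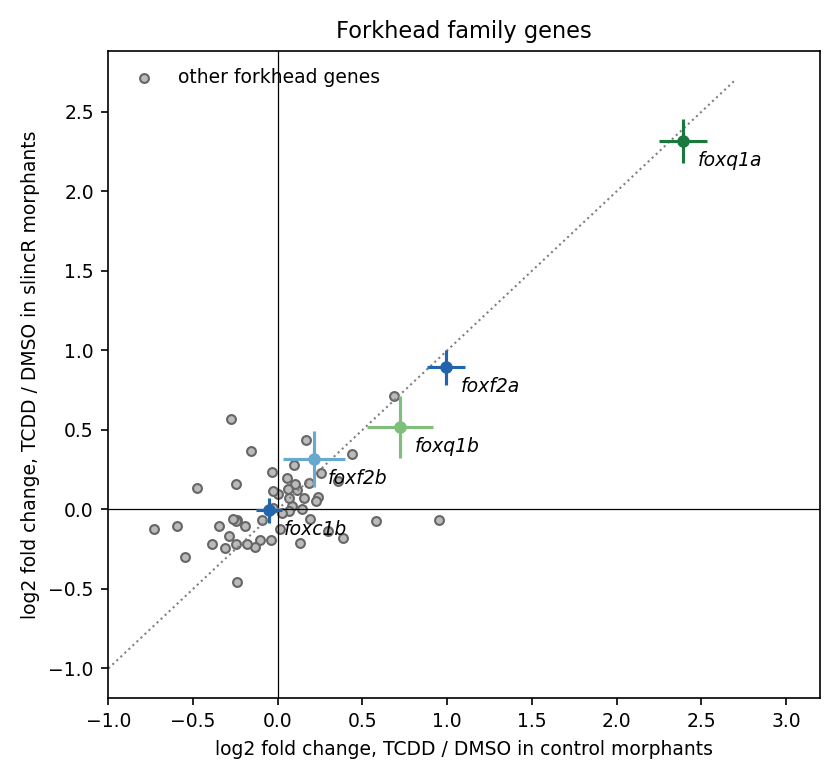
Log2 fold change with TCDD in control morphants (x axis) against slincR morphants (y axis) for the 55 other forkhead genes and for foxq1a and foxq1b. foxq1a, at 2.39 and 2.32, and foxf2a, at 1.00 and 0.89, lie farthest toward the upper right, and most of the family sits near 0.

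In somites and mesenchyme, where Meox1 acts, a list of 45 regulators gave 27 genes matched by symbol. Unmatched genes were not looked at, and 25 of the 27 were tested. In control morphants 2 rose and 1 fell by edgeR, and the median log2 fold change was 0.06. Of all genes tested, 0.62% passed in control morphants and 0.383% in slincR morphants. At an unadjusted p under 0.05 edgeR gave 6 of the 25 in control morphants (24%, beside 11.2% of all genes tested), 4 higher and 2 lower. In slincR morphants it gave 5 (20%, beside 6.91%), 1 higher and 4 lower. foxf2a rose, as above, and so did TCF15, a bHLH factor of the somites, at 4.20 ± 1.72 CPM in ConMO_TCDD and 1.69 ± 0.469 CPM in ConMO_DMSO (SD, n = 4 each). Its log2 fold change was 1.31 ± 0.29 (SE; edgeR adjusted p 0.0288), and the call was lost under 7 of 25 alternative settings. In slincR morphants TCF15 had a log2 fold change of 0.34 ± 0.28 (SE; edgeR adjusted p 0.925). The interaction of TCF15 had an unadjusted p of 0.0235 and an adjusted p of 1 by edgeR. Since no gene tested passed the interaction after adjustment, a difference between morpholinos was neither shown nor excluded for TCF15.

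cxcl12b, a chemokine that guides migrating cells, fell in both backgrounds. It had 40.1 ± 1.63 CPM in ConMO_TCDD and 57.9 ± 5.26 CPM in ConMO_DMSO (SD, n = 4 each), a log2 fold change of -0.53 ± 0.13 (SE; edgeR adjusted p 0.0487). It had 43.6 ± 8.22 CPM in slincRMO_TCDD and 67.1 ± 12.7 CPM in slincRMO_DMSO (SD, n = 4 each), a log2 fold change of -0.63 ± 0.12 (SE; edgeR adjusted p 0.0146). The call was lost under 15 of 25 alternatives in control morphants and under 3 of 25 in slincR morphants. In slincR morphants foxf2a rose and cxcl12b fell, and the median of the 25 genes was 0.05. meox2b, a paralog of meox1, had log2 fold changes of 0.08 ± 0.31 (SE) in control morphants and 0.24 ± 0.31 (SE) in slincR morphants, and did not pass.

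Of 41 regulators of the jaw and pharyngeal arches, 23 were matched and tested, with a median log2 fold change of -0.02 in control and -0.01 in slincR morphants. The others were not matched by symbol, sox9a and sox9b among them, so the values here do not cover those genes. By edgeR 0.62% of all genes tested passed in control morphants and 0.383% in slincR morphants. At an unadjusted p under 0.05 edgeR gave 7 of the 23 in control morphants (30.4%, beside 11.2% of all genes tested), 4 higher and 3 lower. Past the threshold 1 rose in control morphants, msx2b, a homeobox factor of the arches and fins. It had 24.7 ± 1.92 CPM in ConMO_TCDD and 17.0 ± 1.98 CPM in ConMO_DMSO (SD, n = 4 each), a log2 fold change of 0.54 ± 0.13 (SE; edgeR adjusted p 0.0485), and the call was lost under 16 of 25 alternatives. In slincR morphants 0 of the 23 passed by edgeR, DESeq2 or limma-voom. At an unadjusted p under 0.05 edgeR gave 4 there (17.4%, beside 6.91% of all genes tested), 1 higher and 3 lower. msx2b had 0.30 ± 0.13 (SE; edgeR adjusted p 0.612) there.

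Of 30 epithelial and mesenchymal genes linked to FOXQ1 in mammals, 24 were matched by symbol and tested, and the others were not looked at. By edgeR 1 rose in each TCDD comparison, MMP9, a secreted enzyme that degrades extracellular matrix. Of all genes tested, 0.62% passed in control morphants and 0.383% in slincR morphants. At an unadjusted p under 0.05 edgeR gave 2 of the 24 in each, or 8.33%. These were 1 higher and 1 lower in control morphants, and 2 higher and 0 lower in slincR morphants. The shares of all genes tested were 11.2% in control and 6.91% in slincR morphants. MMP9 had 14.9 ± 3.46 CPM in ConMO_TCDD and 7.21 ± 1.74 CPM in ConMO_DMSO (SD, n = 4 each), a log2 fold change of 1.05 ± 0.17 (SE; edgeR adjusted p 0.00144). It had 10.7 ± 1.25 CPM in slincRMO_TCDD and 6.20 ± 0.408 CPM in slincRMO_DMSO (SD, n = 4 each), a log2 fold change of 0.78 ± 0.17 (SE; edgeR adjusted p 0.0428), and that call was lost under 10 of 25 alternatives. The list as a whole stayed near 0, with medians of 0.06 and 0.05. The epithelial cadherin cdh1 had log2 fold changes of -0.05 ± 0.10 (SE) in control and 0.07 ± 0.10 (SE) in slincR morphants. Its mesenchymal counterpart CDH2 had -0.02 ± 0.07 (SE) and 0.10 ± 0.07 (SE).

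Of 13 core genes of the AHR pathway, 12 were matched by symbol and 11 tested. cyp1a was not among the 11, because the gene table names its row CYP1A1. That row was tested, with log2 fold changes of 7.27 in control and 7.38 in slincR morphants. Of the 11, 7 rose by edgeR in each TCDD comparison. Of all genes tested, 0.47% rose in control and 0.31% in slincR morphants. The 7 were the receptor gene ahr2, its repressors ahrra and ahrrb, tiparp, CYP1B1, cyp1c1 and cyp1c2. The median log2 fold change of the 11 was 0.96 in both comparisons. foxq1a, with log2 fold changes of 2.39 and 2.32, lay above tiparp at 0.72 and 0.84 and below CYP1B1 at 3.32 and 3.32.

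Of listed markers of 5 cell types that whole embryos hold, those matched by symbol gave 58 tested genes. By edgeR 0 of the 58 passed in either TCDD comparison, with 15 in control and 14 in slincR morphants at an unadjusted p under 0.05. These were 25.9% and 24.1% of the markers, beside 11.2% and 6.91% of all genes tested. DESeq2 called 1 in each, the endothelial gene plvapa, and limma-voom 0 in control and 1 in slincR morphants. The summed level of 13 fibroblast and mesenchyme markers was 7863 to 8574 CPM in ConMO_TCDD and 7481 to 7837 CPM in ConMO_DMSO, without overlap. It was 7881 to 8256 CPM in slincRMO_TCDD and 7353 to 8226 CPM in slincRMO_DMSO, with overlap. Such a sum weighs abundant genes most. The median log2 fold change of these 13 markers was 0.02 in control and 0.06 in slincR morphants. At an unadjusted p under 0.05 edgeR gave 2 higher and 2 lower in control morphants, and 1 higher and 0 lower in slincR morphants. The sums of the other 4 lists, for keratinocytes, skeletal muscle, endothelium and cartilage, overlapped between TCDD and DMSO libraries under either morpholino. At that unadjusted p by edgeR, keratinocyte markers numbered 0 higher and 3 lower in control morphants. Skeletal muscle had 0 and 1, endothelium 2 and 2, and cartilage 0 and 3. In slincR morphants the 4 lists had 1 and 3, 0 and 2, 2 and 2, and 1 and 2, in the same order. The part of cell makeup in the levels of foxq1a, foxq1b and meox1 was not tested.

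Genes with the most similar pattern were named by Pearson's r of log2 levels over the 16 libraries. For foxq1a the 8 exposed and 8 unexposed libraries form separate clusters, so its r mainly ranks genes by that split. Pooled over both morpholinos, the exposed and unexposed libraries overlapped for the other genes. The lowest exposed and highest unexposed library had 4.93 and 5.59 CPM for foxq1b, and 18.4 and 18.6 CPM for meox1. For each gene r is given as a description. The 5 nearest to foxq1a were CYP1A1 (the cyp1a row), CYP1B1, cyp1c1, ugt1b1 and cyp1c2, each at an r of 0.99. The cytochrome P450 enzymes among them are classical AHR targets, and ugt1b1 encodes a conjugating enzyme. The same 5 genes came out under each of 17 other settings.

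The 5 nearest to meox1 were PCK1, the gluconeogenic enzyme, at an r of 0.96, ADM, the vasodilator adrenomedullin, at 0.94, the ephrin receptor gene ephb4b at 0.93, ccn2b, a matrix-associated growth factor, at 0.93, and sele, a selectin, at 0.92. Their own log2 fold changes with TCDD in control morphants were 0.97, 0.59, 0.53, 1.83 and 0.60, in that order. Among the 5 nearest to foxq1b were si:dkey-202e22.2 and il17rc at 0.87, and SCUBE1 and il6r at 0.86. Under the 17 other settings, 2 to 5 of the 5 names were kept for meox1 and 2 to 5 for foxq1b. Without ConMO_DMSO replicate 4 alone, 4 of the 5 were kept for meox1 and 3 for foxq1b.

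**Figure D5:**
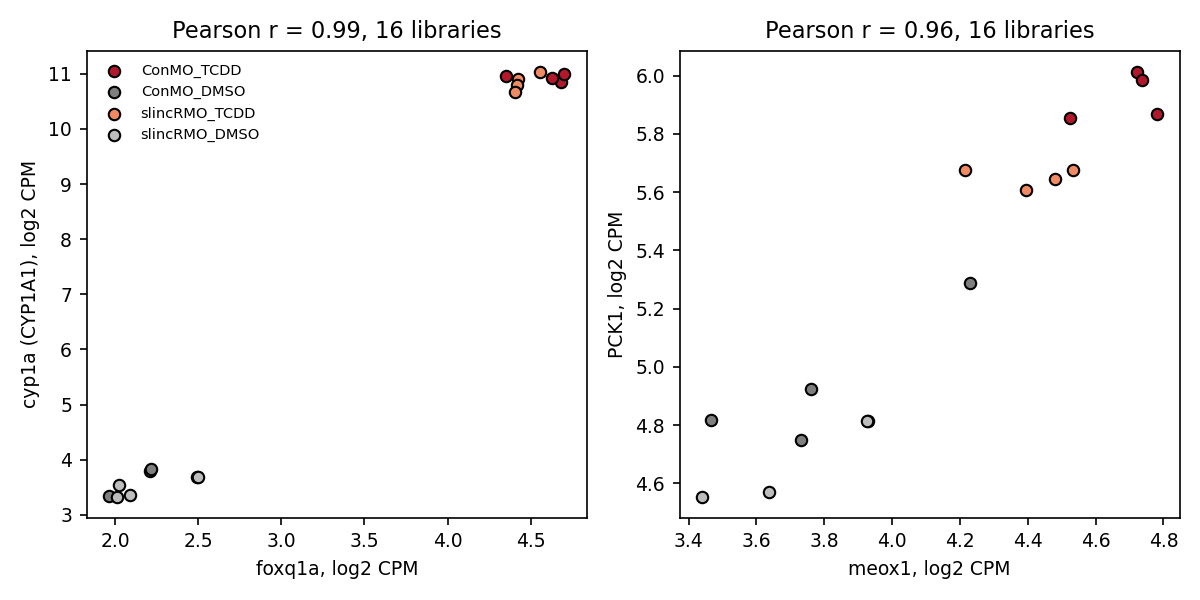
Log2 CPM of foxq1a and meox1 (x axes, 1 panel each) against that of the gene nearest in pattern (y axes: cyp1a for foxq1a and PCK1 for meox1), with 1 point for each of the 16 libraries, coloured by group. For foxq1a (r of 0.99) the TCDD and DMSO libraries form separate clusters with nothing between, while the points of meox1 (r of 0.96) are more spread out.

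Among the 3 genes themselves, r over the 16 libraries was 0.73 between foxq1a and foxq1b, 0.88 between foxq1a and meox1, and 0.58 between foxq1b and meox1. After each library's value was taken as its deviation from its group mean, which removes the exposure, r was -0.31, 0.09 and -0.58 in the same order of pairs. Without ConMO_DMSO replicate 4 these were 0.0037, -0.36 and -0.28 over the other 15 libraries, so the values after removal of the exposure rest largely on that library. The r of the levels without it were 0.74, 0.91 and 0.69.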

How the data were processed

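Poly-A RNA of whole embryos was sequenced as paired 150 bp reads, per the labels' protocols. The deposited unit is raw counts per Ensembl gene. The submitters' processing notes name FastQC, TopHat, SAMtools, HTSeq and edgeR and the build GRCz10, with no versions. Whether strand was used in counting, and which annotation, is not given in the sources used here. Whether reads antisense to a gene, or from one that overlaps it, were counted with it is therefore not known. Per library, 12.8% to 16.1% of entries fell in no gene, 24.4% to 29.4% aligned to several places and 0.27% to 0.33% were ambiguous. None of these entered library sizes or tests, and what paralogs lose that way was not tested. Depth was 14977267 to 23142081 gene reads.

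Counts were normalised by TMM and filtered with filterByExpr (minimum count 10), which kept 20630 of 32266 genes. The 16 libraries were fitted together by a quasi-likelihood model of 4 group means, with edgeR 4.0.16 in R 4.3.3. Each adjusted p is Benjamini-Hochberg adjusted over all tested genes and passes under 0.05. SE is the size of the log2 fold change divided by the square root of F. DESeq2 1.42.0 and limma-voom (limma 3.58.1) were alternatives, as were other normalisations, no filter, a replicate block, the no-gene share of reads as a covariate, only the groups compared, and each library left out. Scripts were tested on simulated data. CPM use TMM library sizes. For likeness, log2 CPM had 2 as the prior count.

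The authors' deposited lists give each gene a p-value, raw and adjusted, beside its log2 fold change, log2 mean level and F score, per the file headers, and a −log10 of the adjusted p-value that the authors deposited. They were used for names, for listing and for the authors' log2 fold changes of foxq1a and meox1, which come from these same samples. foxq1a, foxq1b, meox1 and all gene lists were chosen with earlier results of these data known. Named genes were these 3, 3 neighbours on each side, cyp1a, the 5 most alike by each measure, up to 4 members of each list past the threshold, and forkhead genes past it. Others, named as examples or for a DESeq2 call, were chosen after their values were seen. Gene names came from a table of Ensembl identifiers, and symbols in capitals stand as that table gives them. It names the rows of foxq1a and meox1 FOXQ1 and MEOX1, and the names here are those of the authors' table. A gene alike to foxq1b is not reported here. The planned search for response element letters in promoters was not run here. The replicates are biological per the labels.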

Additional observations from a re-analysis of the deposited data

Results flagged for a closer look

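In 2 of the 12 groups formed by the 3 genes, the highest library stood apart from the other 3 by more than Dixon's 95% limit, and chance flags about 1 in 20 groups. foxq1a stood at 23.4 CPM in slincRMO_TCDD replicate 4, above 21.1 to 21.4 CPM in the other 3 libraries. It stood at 5.54 CPM in slincRMO_DMSO replicate 1, above 3.91 to 4.15 CPM in the other 3. Without slincRMO_TCDD replicate 4 the log2 fold change of foxq1a with TCDD in slincR morphants was 2.28 ± 0.15 (SE), and without slincRMO_DMSO replicate 1 it was 2.44 ± 0.14 (SE).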

How the results depend on the processing

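The TCDD fold changes of the 3 genes, given with no test, kept their direction in all 150 values under alternatives. foxq1a and meox1 were chosen for this rise, and the groups of all 3 genes did not overlap. The kept direction is therefore no independent support. Of 222 values in the slincR comparisons and the interaction, 217 kept their direction and side of the threshold and 5 changed sign, all on leaving out 1 library and all near 0. For foxq1a, slincR against control in DMSO ran from -0.19 to 0.0304 over the libraries left out (the highest without ConMO_DMSO replicate 4). Its interaction ran from -0.18 to 0.0481 (0.0068 without ConMO_DMSO replicate 1, 0.0481 without slincRMO_DMSO replicate 1). For meox1 in DMSO the range was -0.18 to 0.10 (0.10 without ConMO_DMSO replicate 4, 0.02 without slincRMO_DMSO replicate 3). The cause was not tested. With the no-gene share of reads as a covariate, the TCDD log2 fold change of meox1 was 0.75 in control and 0.59 in slincR morphants.

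Called genes in all numbered 128 in control morphants with TCDD (DESeq2 275, only the groups compared 69, covariate 283, libraries left out 70 to 155) and 79 in slincR morphants (165, 125, 130, 61 to 114). They numbered 92 for slincR in TCDD (244, 180, 286, 22 to 115) and 31 in DMSO (97, 17, 99, 17 to 52, and 54 with no filter). Called forkhead genes in control morphants numbered 3 by DESeq2, 2 with no filter, 2 with the covariate and 1 to 2 with a library left out. Somite and mesenchyme genes in control morphants numbered 1 by limma-voom and 1 to 3 with a library left out, and in slincR morphants 1 to 2. Jaw genes in control morphants, and epithelial and mesenchymal genes in slincR morphants, numbered 0 to 1 with a library left out, and the epithelial and mesenchymal list 0 by limma-voom.

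Same-numbered libraries did not in general deviate together. Correlations were -0.11 to 0.09 between ConMO_TCDD and ConMO_DMSO and -0.18 to -0.01 between slincRMO_TCDD and slincRMO_DMSO. They were -0.11 to 0.03 between slincRMO_TCDD and ConMO_TCDD, and -0.05 to 0.13 with 1 over 0.1 between slincRMO_DMSO and ConMO_DMSO. The best match was the same number for 2, 0, 1 and 1 of 4 libraries, in that order. No strong pairing by number was seen, but these values cannot exclude a weak one. With the replicate block the TCDD log2 fold change was 2.39 and 2.32 for foxq1a, 0.72 and 0.52 for foxq1b, and 0.89 and 0.68 for meox1, in control and slincR morphants. The block gave 108 and 86 called genes, 1 somite and mesenchyme gene and 0 jaw genes in control morphants, and 0 epithelial and mesenchymal genes in slincR morphants. Fits on only the groups compared do not exist for the interaction. Depth limits foxq1b most, at 51 to 159 reads a library.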

Other observations

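Once each library's value was taken as its deviation from its group mean, other genes ran alongside the 3. The 5 with the highest r over 16 libraries for meox1 were pard6a and srsf2a at 0.94, dnttip2 at 0.93, and CELF1 and si:ch211-168f7.5 at 0.91. For foxq1b they were PTGIR at 0.89, LRFN2 at 0.88, SLC29A1 at 0.87, PRTG at 0.86 and XKR6 at 0.85. For foxq1a they were ZNF513, SMARCAD1 and ENSDARG00000098503 at 0.83, HOXD11 at 0.82 and FNTB at 0.81. Under 17 other settings 0 to 5 of the names were kept for foxq1a, 0 to 5 for foxq1b and 1 to 5 for meox1. Without ConMO_DMSO replicate 4 alone, 0 of the 5 names were kept for foxq1a, 0 for foxq1b and 1 for meox1, so these names rest on that library.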
